A study of Mus musculus with 176 samples.

Results

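The genes described here are 6 transcription factors that define the lineages of helper T cells: Foxp3, Tbx21, Gata3, Rora, Bcl6 and Eomes. They were taken by name from a table of 53546 gene names, each factor was listed there once, and all 6 were followed in every cell. The cells were CD4 T cells of the inbred mouse strain C57BL/6J, from females immunized by intramuscular injection with P6, a peptide of the lipoprotein ApoB, first with complete Freund's adjuvant (week 0) and again with the incomplete form (week 2). Inguinal and para-aortic lymph nodes were taken at week 4, and antigen-experienced cells (TCRβ+, CD4+, high CD44) were index sorted into single wells. Of the 176 sorted cells, 32 bound tetramers of P6 on the MHC-II molecule I-Ab in both colors (P6+), and the rest bound neither (P6-). Every cell, P6- cells included, thus came from an immunized animal, and no cells of an unimmunized animal are part of the comparison. The P6+ cells came from 1 mouse, and the study's methods describe sorting the P6- cells from what remained of the sample. The labels name no animal for the single cells, so each tetramer group is treated as 1 sample, cells are not replicates, and no test between groups was made.

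Each of these factors can direct an activated CD4 T cell to a different fate. Foxp3 is a forkhead protein that establishes regulatory T cells (Treg). Tbx21 encodes T-bet, a T-box protein that drives T helper 1 (Th1) cells, and Eomes encodes its relative Eomesodermin, best known from cytotoxic T and NK cells. Gata3, a zinc finger protein, directs Th2 cells and is also found in activated Treg. Rora encodes RORα, a nuclear receptor that takes part in Th17 development, and Bcl6 is a zinc finger repressor that establishes follicular helper T (Tfh) cells. Several of these proteins repress the program of another lineage, which is why their presence in the same cell is of interest.

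Full-length cDNA was sequenced by the Smart-Seq2 protocol, which counts amplified reads rather than molecules. Reads on genes numbered 956280 to 3332190 in P6+ cells (median 1731610). Cells with fewer than 500000 reads or 2000 genes, or with 10% or more mitochondrial reads, were left out, which kept 161 cells, among them every P6+ cell. The study also removed cells by mapping rate, a filter not used here, so that the P6- group holds more cells than the study kept. The P6- cells kept had a median of 1500460 reads. The P6+ cells had a median of 4396 genes with a read against 3432 in passing P6- cells. Cell titles carried 8 prefixes, and the P6+ cells shared a single prefix with 11 passing P6- cells, so that prefix and tetramer group cannot be told apart outside those 11 cells. Defining markers of CD8 T cells (Cd8a), B cells (Cd79a), NK cells (Ncr1) and myeloid cells (Lyz2) reached 10 reads in 0 passing cells of either group. Other markers of these types did reach it, Cd8b1 in 2 P6- cells, Cd79b in 2 P6+ cells (46.1 cpm, reads of the gene per 1e+06 reads of the group) and Ighm in 14 P6+ and 30 P6- cells. Cd3e reached 10 reads in 28 of 32 P6+ and 82 P6- cells, and Cd4 in 16 and 39, although every cell had been sorted on CD4 protein. A cell without reads of a factor can therefore not be called a cell without the factor.

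The windows upstream of annotated starts are shown for Foxp3 and Bcl6, a pair of factors that was not found together in a P6+ cell. Each run holds the 250 bases before a start in RefSeq (build GRCm38.p6), written 5′ to 3′ on the strand of the gene, with capitals for letters that match a motif of these factor families. The Foxp3 window lies at chrX:7580233-7580482 on the + strand, inside the gene and inside an exon of the noncoding gene Flicr. The Bcl6 window lies at chr16:23981284-23981533 on the - strand, inside an intron of Bcl6.
Foxp3: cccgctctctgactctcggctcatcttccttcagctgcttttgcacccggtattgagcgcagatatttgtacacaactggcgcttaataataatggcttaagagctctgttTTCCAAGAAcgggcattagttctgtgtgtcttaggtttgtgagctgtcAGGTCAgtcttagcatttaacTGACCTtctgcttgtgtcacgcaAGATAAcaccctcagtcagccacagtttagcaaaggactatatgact
Bcl6: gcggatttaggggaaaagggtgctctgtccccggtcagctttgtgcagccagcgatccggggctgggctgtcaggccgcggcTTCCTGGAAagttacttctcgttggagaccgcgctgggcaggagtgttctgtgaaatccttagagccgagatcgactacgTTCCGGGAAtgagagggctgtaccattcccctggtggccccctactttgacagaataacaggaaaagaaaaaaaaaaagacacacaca
The capitals of the Foxp3 window mark a BCL6-type motif, 2 ROR motifs and a GATA motif, in this order, and those of the Bcl6 window mark 2 BCL6-type motifs. Both strands were searched. The motif of the GATA family was AGATAA or, as the other form, TGATAA. That of forkhead proteins was GTAAACA and that of ROR proteins was AGGTCA. The BCL6 motif, whose letters STAT proteins share, was TTCCNNGAA or, as the other form, TTCNNGGAA, and the T-box motif was AGGTGTGA. Among 32851 RefSeq windows of this length, 16.6% held the GATA, 14% the ROR, 4.06% the BCL6, 3.17% the forkhead and 1.12% the T-box letters. The 6 factors had 8 windows in the table, and matches were present in the other Foxp3 window (2 GATA motifs) and absent from the other Bcl6 window and from those of Tbx21, Gata3, Rora and Eomes. These matches describe the letters and show no binding.

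Reads of a factor were nearly all or nothing. A cell was counted as holding a factor at 10 or more reads, and in such cells the median was 674.5 (Bcl6) to 1910 (Tbx21) reads in P6+ cells and 320 (Eomes) to 2984 (Tbx21) in P6- cells. Over 99% of the reads of each factor lay in these cells in both groups, apart from Eomes in P6+ cells, where a single read was counted. Counts of 10 to 49 reads were seen in only 1 P6+ cell for Foxp3 (22 reads) and 2 for Gata3 (13 and 46 reads), and in 1 P6- cell each for Foxp3, Gata3, Rora and Eomes. Counts of 1 to 9 reads were frequent, in 15 P6+ and 68 P6- cells for Rora and in 14 and 41 cells for Bcl6. What these low counts stand for was not tested, and they are given apart from the cells above the limit.

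**Figure D1:**
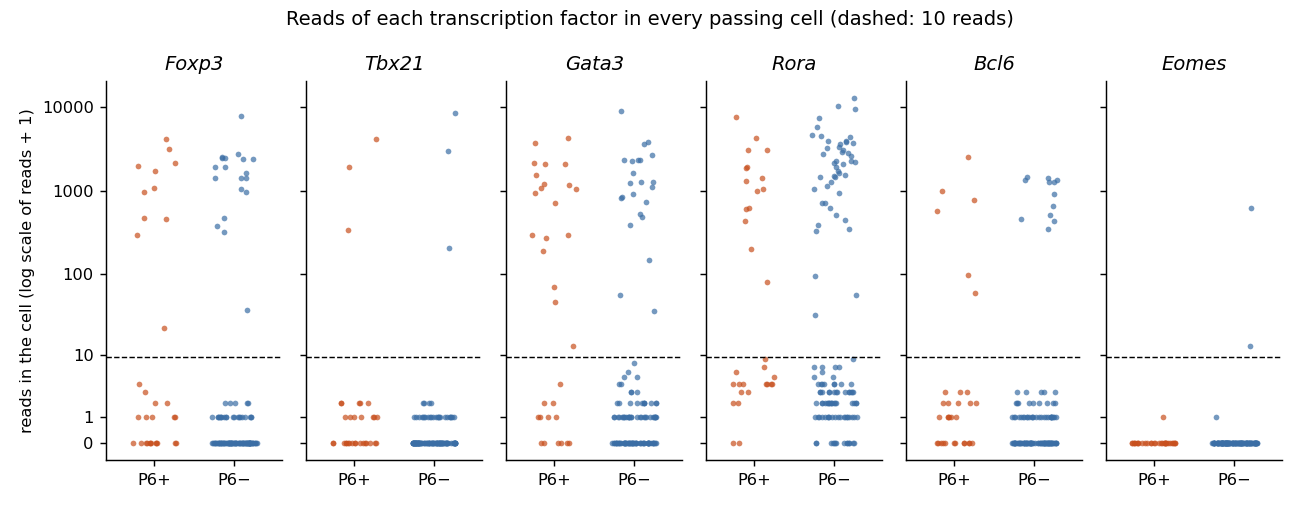
Reads of each transcription factor in every passing cell (points, spread sideways at random) for 32 P6+ cells and the passing P6- cells, on a log scale of reads + 1, with the limit of 10 reads dashed. Most points lie either at 0 to 9 reads or above 100 reads, and few fall between.

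Gata3 was the factor seen in most P6+ cells. Gata3 (chromosome 2 of GRCm38, 9857078 to 9890034, - strand) reached 10 reads in 19 of 32 P6+ cells (59.4%, 95% interval 40.6 to 76.3%) and in 23 P6- cells (17.8%, 11.7 to 25.5%). These exact binomial intervals count cells, which are not replicates of a condition, and cover counting error only. They did not overlap. The same, with P6+ cells higher, was true of 8.13% of the 6164 genes with 10 reads in 5% or more of the cells, and 77.3% of these genes had the higher share in P6+ cells, so a higher share was the rule there. Of the 4 factors among these genes (Foxp3, Gata3, Rora and Bcl6), all had the higher share in P6+ cells and Gata3 was the 1 whose intervals stood apart. With each cell thinned to 500000 reads the shares of Gata3 were 56.2 and 17.1%, where 78% of genes had the higher share in P6+ cells and 7.36% had intervals apart. Against the P6- cells of the same prefix, where Gata3 was in 2 of 11 cells (18.2%, 2.28 to 51.8%), the intervals of all 5 factors tested overlapped, where 71.3% of genes had the higher share in P6+ cells and 0.537% had intervals apart. In the 19 P6+ cells the Gata3 reads ran from 13 through a median of 1038 to 4217, and in the 23 P6- cells from 36 through 1237 to 8928, so the ranges overlapped widely.

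Rora was the factor seen in most P6- cells. Rora (chromosome 9, 68653786 to 69388246, + strand) reached 10 reads in 15 P6+ cells (46.9%, 29.1 to 65.3%) and in 47 P6- cells (36.4%, 28.1 to 45.4%), with 4 of 11 in the same prefix (36.4%, 10.9 to 69.2%). All intervals overlapped. The reads ran from 81 through a median of 1298 to 7567 in the P6+ cells that held it and from 32 through 2115 to 12649 in the P6- cells.

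Foxp3 (chromosome X, 7573644 to 7595245, + strand) was present in 11 P6+ cells (34.4%, 18.6 to 53.2%) and in 19 P6- cells (14.7%, 9.11 to 22.0%), with intervals that overlapped. In the same prefix 3 of 11 P6- cells held it (27.3%, 6.02 to 61%). Reads ran from 22 through a median of 1065 to 4166 in P6+ cells and from 37 through 1648 to 7737 in P6- cells. Of the exon bases of Foxp3, 31.5% are shared with other genes, mostly Flicr on the same strand. STAR assigns a read only where it overlaps a single gene, so reads on the shared bases may be missing from both.

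Bcl6 (chromosome 16, 23965052 to 23988852, - strand) was present in 6 P6+ cells (18.8%, 7.21 to 36.4%) and in 12 P6- cells (9.30%, 4.90 to 15.7%), again with overlapping intervals. The 6 P6+ cells held 60, 98, 577, 772, 1003 and 2547 reads, and the last of them alone carried 50.1% of the Bcl6 reads of the group. In the P6- cells that held it the reads lay between 345 and 1440, around a median of 1086.

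The T-box factors were rare. Tbx21 (chromosome 11, 97098071 to 97115331, - strand) was present in 3 P6+ cells (9.38%, 1.98 to 25%), with 341, 1910 and 4084 reads, and in 3 P6- cells (2.33%, 0.482 to 6.65%), with 210, 2984 and 8416 reads. None of the 11 same-prefix P6- cells held it, which allows a share of up to 27.3% at 3 counts and 28.5% by the exact interval. Eomes (chromosome 9, 118478212 to 118486132, + strand) was present in 2 P6- cells, with 13 and 627 reads, and in 0 of 32 P6+ cells, which allows a share of up to 9.38% at 3 counts and 10.9% by the exact interval. A single Eomes read was counted among the P6+ cells, and 1 P6- cell held 97.8% of the Eomes reads of its group.

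Between title prefixes the share of P6- cells with a factor varied. It ran from 5 to 27.3% for Foxp3, from 12.5 to 28.6% for Gata3, from 12.5 to 58.3% for Rora, and from 0 to 18.2% for Bcl6, which 2 prefixes lacked. The P6+ share of Gata3 lay above the highest of the 8 prefixes, and so did that of Foxp3 and, narrowly, of Bcl6. The P6+ share of Rora lay inside the range. Other markers differed between the tetramer groups too. The summed level of 6 naive and recirculating markers had a median of 985 cpm in P6+ and 4586 cpm in P6- cells, and the cycling markers Top2a, Birc5 and Mki67 reached 10 reads in 5, 4 and 3 P6+ cells and in 6, 1 and 1 P6- cells, while Ccnb1 did in 0 of either. Their part in the shares of the factors was not tested.

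**Figure D2:**
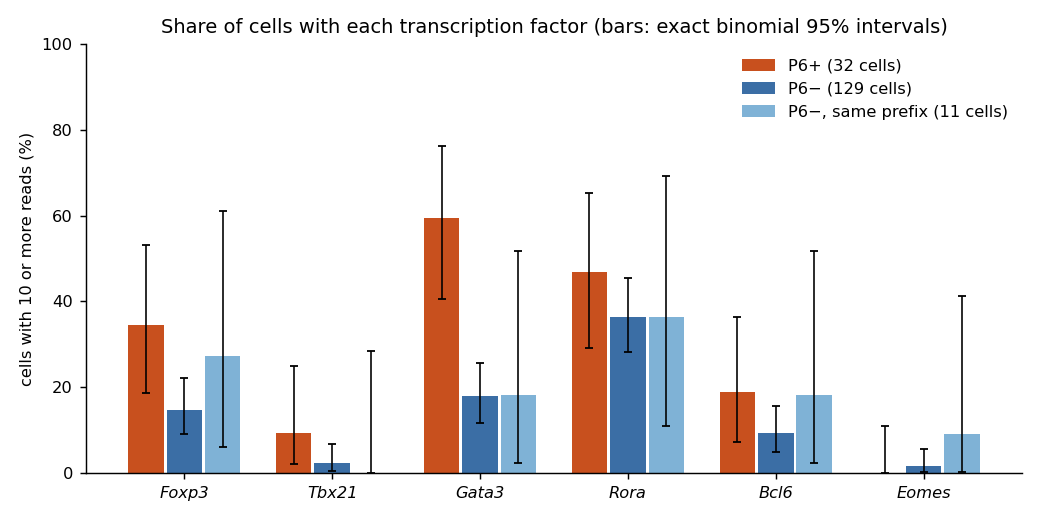
Share of cells with 10 or more reads of each transcription factor in P6+ cells, P6- cells and the P6- cells that share the title prefix of the P6+ cells, with exact binomial 95% intervals as lines. Gata3 at 59.4% of P6+ and 17.8% of P6- cells is the factor whose intervals do not overlap between these groups.

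The level of each factor was then compared over whole groups. The reads of a gene in all cells of a group were set against the reads of all genes there (cpm, on a scale of 1e+06 reads), and ratios were taken with 1 cpm added to both sides. Gata3 reached 390 cpm in P6+ and 195 cpm in P6- cells, a log2 ratio of 0.997. Foxp3 reached 277 and 175 cpm (log2 ratio 0.66), Tbx21 107.04 and 57.1 cpm (0.90), and Bcl6 85.6 and 56.4 cpm (0.59). Rora was lower in P6+ cells, at 481 against 635 cpm (-0.40), although more of the P6+ cells held it. With a call defined as a log2 ratio of 1 or more either way and 10 cpm in the higher group, 0 of the 5 factors tested were called, against 24.3% of all 8728 genes tested called higher and 29.9% called lower. Gata3 lay just under the limit and was called with a pseudocount of 0.1 cpm (1.0003), without the cell with the most reads in each group (1.14) and with no filter on cells (1.07). Tbx21 was called without those cells (1.25) and with the mean of each cell's cpm (1.18). Eomes stayed under 10 cpm in both groups.

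Of the 5 ratios, 3 changed direction with the choice of P6- cells. Against the 11 same-prefix P6- cells, where 50.3% of genes were called higher and 24% lower, Gata3 kept its direction (390 against 140.97 cpm, log2 ratio 1.46) while Rora changed direction (481 against 236 cpm, 1.02). Foxp3 was at 311 cpm in the same-prefix cells and Bcl6 at 124.8 cpm, so both turned to negative ratios (-0.17 and -0.54). Tbx21 had 2 reads there, a log2 ratio of 6.58 with 1 cpm added to both sides, and a ratio of the levels with nothing added of 826 with a counting interval of 229 to 6826. Eomes, not among the 5, passed the minimum in this comparison and was called lower in P6+ cells (0.0169 against 40.6 cpm, -5.35). Its same-prefix level came from 1 cell with 627 reads. Leaving out the cell with the most reads in each group turned the ratio of Bcl6 to -0.18.

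Per kilobase of exon, on the scale of pooled cpm per kb, the order of the levels in P6+ cells was Gata3 (98.2), Foxp3 (60.4), Tbx21 (43), Rora (36.8), Bcl6 (12.8) and Eomes (0.00406). In P6- cells it was Gata3 (49.1), Rora (48.6), Foxp3 (38.2), Tbx21 (22.9), Bcl6 (8.42) and Eomes (0.757), with Gata3 and Rora nearly level. Divided by the exon bases that no other gene shares, Foxp3 stood at 55.8 in P6- cells, above Gata3 (52.1) and Rora (48.9), and at 88.2 in P6+ cells, below Gata3 (104.2), so its place in the order of P6- cells depends on the length used, a choice made after seeing the data. Of the Tbx21 reads 1 cell held 64.3% in P6+ and 72.3% in P6- cells, so its place in the order is that of a few cells.

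Cells with several of the factors were common among P6+ cells. At least 2 of the 6 were present in 17 of 32 P6+ cells (53.1%, 34.7 to 70.9%) and in 25 P6- cells (19.4%, 13 to 27.3%). These intervals did not overlap. Among the single genes tested 77.3% had the higher share in P6+ cells, and 8.13% had it with intervals apart. The share of a single gene is not a like measure for a count of 2 of 6 factors, so nothing particular to these factors can be read from this count. In the same prefix 2 of 11 P6- cells had at least 2 (18.2%, 2.28 to 51.8%), an interval that overlapped that of P6+ cells. At least 1 factor was present in 31 of 32 P6+ and 73 P6- cells (56.6%). Thinning each cell to 500000 reads left 17 and 25 cells with at least 2 factors. The P6+ cells with 2 or more factors had a median of 1568920 reads and 4589 genes, and those with 1 factor 2023180 reads and 4222 genes.

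Gata3 was most often joined by Rora, and this pair was part of 10 P6+ and 12 P6- cells, where the shares multiplied would give 8.91 and 8.38. Gata3 alone and Gata3 with Rora each marked 5 P6+ cells. Foxp3, Gata3 and Rora together marked 4, and Foxp3 alone marked 3. Bcl6 alone marked 4 cells, Rora alone 2, Foxp3 with Rora 2, and Tbx21 with Gata3 2. The most frequent states of P6- cells were no factor (56 cells), Rora alone (25), Foxp3 alone and Gata3 alone (8 each), Gata3 with Rora (7), and Foxp3 with Rora and Bcl6 alone (6 each).

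P6+ cell 32 and P6- cell 86 each held 4 factors. P6+ cell 32 had 293 Foxp3, 341 Tbx21, 271 Gata3 and 1046 Rora reads. P6- cell 86, which shares the prefix of the P6+ cells, had 479 Foxp3, 1259 Gata3, 1129 Rora and 1261 Bcl6 reads. It was the 1 cell of the 161 in which Foxp3 and Bcl6 were both present. With no molecular identifiers and no doublet caller, whether a well held more than a single cell was not tested.

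**Figure D3:**
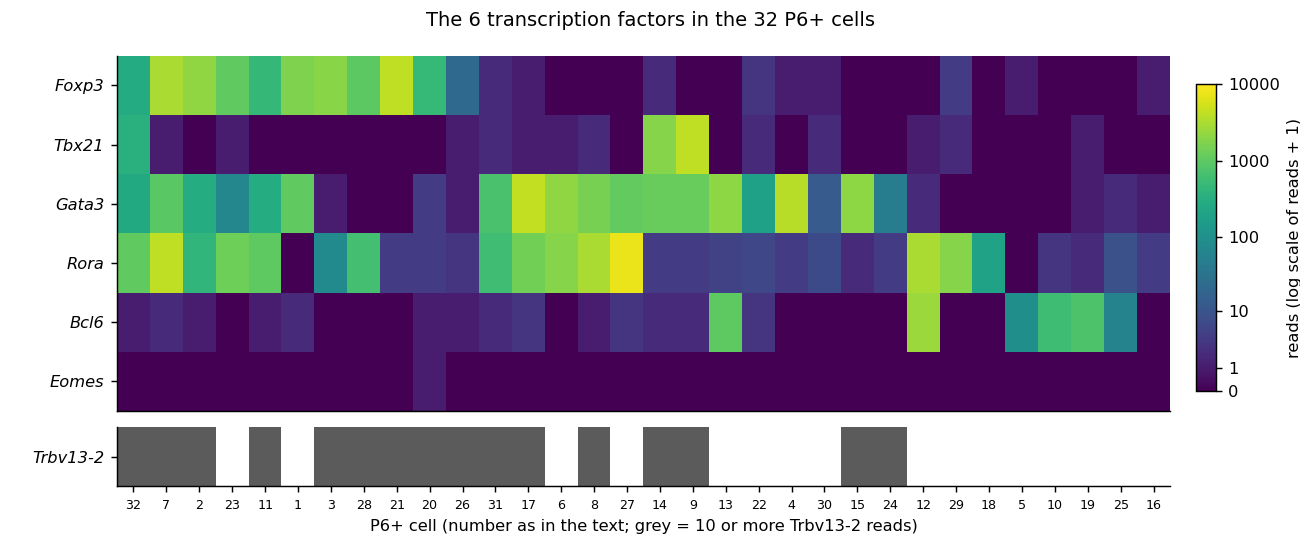
Reads of the 6 transcription factors (rows) in the 32 P6+ cells (columns, ordered by which factors they hold), colored on a log scale of reads + 1, with cells that had 10 or more Trbv13-2 reads in grey below. Foxp3 and Bcl6 occupy different columns, and the 6 columns with Bcl6 lie outside the grey ones.

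Foxp3 was accompanied by Rora or Gata3 in most P6+ cells. Of the 11 P6+ cells with Foxp3, 8 held another of the factors, with Rora in 7 (63.6%, 30.8 to 89.1%) and Gata3 in 6 (54.5%, 23.4 to 83.3%). In the 21 P6+ cells without Foxp3 the shares were 38.1% for Rora (18.1 to 61.6%) and 61.9% for Gata3 (38.4 to 81.9%), so that both pairs of intervals overlapped. Among the 19 P6- cells with Foxp3, 10 held Rora and 5 held Gata3. The phi coefficient, a correlation of presence in the same cells that is 1 where they coincide and 0 where they are unrelated, was 0.24 for Foxp3 with Rora and -0.07 with Gata3 over the 32 P6+ cells. Its median over 7346 genes was 0.08 for Foxp3, and it is given as a description, as all these cells share a mouse and a prefix.

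Foxp3 and Bcl6 were not found in the same P6+ cell. Their shares multiplied would give 2.06 cells, and 0 were seen, with a phi of -0.35. Of 7346 genes 0.449% had a lower phi with Foxp3 and 1.48% a lower phi with Bcl6, among cells of 1 mouse and 1 title prefix. Foxp3 was in 9 of the 16 P6+ cells with Trbv13-2 and 2 of the 16 without, and Bcl6 in 0 and 6. The product of shares and phi take no account of this split, and its part was not tested. The 11 P6+ cells with Foxp3 held 0 to 2 Bcl6 reads, and of the 6 with Bcl6 5 had 0 Foxp3 reads and the other had 1. The shares of Bcl6 in P6+ cells with Foxp3 (0%, upper bound 28.5%) and without Foxp3 (28.6%, 11.3 to 52.2%) had overlapping intervals, so an exclusion was not detectable with these numbers of cells. In P6- cells 1 cell held both, where the shares would give 1.77 and phi was -0.06.

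Bcl6 and Gata3 met in 1 P6+ cell and 3 P6- cells. The P6+ cell with both, cell 13, had 2109 Gata3 and 1003 Bcl6 reads, where the shares would give 3.56 cells (phi -0.42, with 0.408% of genes lower for Gata3 and 0.708% for Bcl6). Bcl6 was in 5.26% of the P6+ cells with Gata3 (0.133 to 26%) and in 38.5% of those without (13.9 to 68.4%), and these intervals overlapped. In P6- cells the shares would give 2.14 cells (phi 0.06). The difference between the groups was not tested. Rora and Bcl6 met in 1 P6+ cell, cell 12 with 3099 and 2547 reads, and in 5 P6- cells.

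Tbx21 was never the sole factor. All 3 P6+ cells with Tbx21 also held Gata3, at 271, 1177 and 1192 reads, where the shares multiplied would give 1.78 cells and the intervals of the Gata3 share with Tbx21 (29.2 to 100%) and without (35.7 to 73.6%) overlapped. Of these cells 1 also held Foxp3 and Rora. In P6- cells 1 of 3 held Gata3, 2 held Rora and 1 held Bcl6, while Foxp3 was at 0 reads in all 3. The 2 P6- cells with Eomes held 0 Foxp3 and 0 Gata3 reads, and 1 of them had 1285 Rora and 1351 Bcl6 reads beside 13 of Eomes. Eomes and Tbx21 were not found in the same cell.

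**Figure D4:**
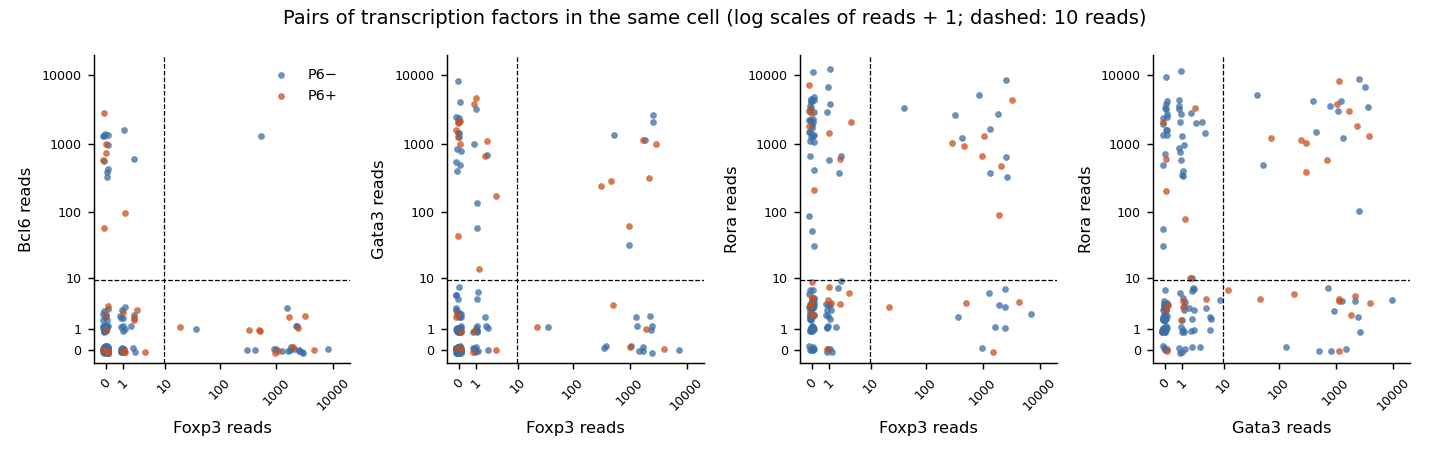
Reads of 4 pairs of transcription factors in the same cell, for P6+ and P6- cells, on log scales of reads + 1 with the limit of 10 reads dashed on both axes and points shifted slightly so that they can be seen. The upper right field of Foxp3 against Bcl6 holds 1 P6- cell and 0 P6+ cells, and that of Gata3 against Rora holds 10 P6+ and 12 P6- cells.

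The P6+ cells were also described by the receptor segment Trbv13-2, which 16 of the 32 cells held at 10 or more reads. Cells of an expanded clone share their origin, so these cells are not independent. Foxp3 was present in 9 of the 16 cells with Trbv13-2 (56.2%, 29.9 to 80.2%) and in 2 of the 16 without (12.5%, 1.55 to 38.3%), and these intervals overlapped. Bcl6 was present in 0 of 16 with Trbv13-2 (upper bound 20.6%) and in 6 of 16 without (37.5%, 15.2 to 64.6%), again with an overlap. All 3 cells with Tbx21 held Trbv13-2. Gata3 was in 11 with and 8 without, and Rora in 9 with and 6 without.

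The genes that share a lineage with a factor were taken from lists of 8 to 15 genes. In P6- cells most Treg genes were higher with Foxp3. With against without Foxp3, 11 of 15 Treg genes were called higher and 3 lower, where 24.4% of 8335 genes were called higher and 37.9% lower, and the median log2 ratio of the list was 1.72 against -0.28 over all genes. Ikzf2, which encodes the Treg factor Helios, reached 890 cpm in cells with Foxp3 (12 of 19 cells) and 70.7 cpm in those without (12 of 110), a log2 ratio of 3.64. Itgae, the integrin CD103, was in 7 of 19 and 3 of 110 cells (3.23). Nrp1, a semaphorin receptor, was lower (8.47 and 62.7 cpm, -2.75), present in 1 of 19 and 6 of 110 cells. Gpr83 was lower through 1 of the 110 cells without Foxp3, which held 99.9% of the reads on that side.

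In P6+ cells few genes of the same list were called by Foxp3. Of 14 genes tested 3 were called higher and 1 lower, where 28.2% of 7721 genes were called higher and 38.3% lower, with a list median of 0.55 against -0.28. Capg, an actin capping protein, was present in 11 of 11 cells with Foxp3 and 9 of 21 without, at 2494 and 648 cpm (log2 ratio 1.94). Lrrc32, which encodes the TGF-β docking receptor GARP, was at 220 and 557 cpm (-1.34) but was present in 4 of 11 and 6 of 21 cells, and without the top cell of the higher side the ratio was -0.20. Entpd1, the ectonucleotidase CD39, was at 81.3 and 33.7 cpm (1.25) and present in 3 cells in all, so that leaving out the top cell of each side turned it to -0.77. The difference between P6+ and P6- cells was not tested.

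Counted per cell, P6+ cells without Foxp3 held a median of 6 of the 15 Treg genes (1 to 11). P6- cells with Foxp3 held 6 (2 to 10), P6- cells without Foxp3 held 2 (0 to 10), and P6+ cells with Foxp3 held 8 (6 to 11). Thinned to 500000 reads the medians were 5, 6, 1.5 and 8. The ranges overlapped, and the P6+ cells without Foxp3 had a median of 4250 genes against 3446 in their P6- counterparts. The difference between the tetramer groups was not tested. Of the 6 naive and recirculating markers 1 had the higher share with Foxp3 in either group, with median summed levels of 638 and 2166 cpm with and without Foxp3 in P6+ cells and 2021 and 5019 cpm in P6- cells. Their part in the Treg counts was not tested.

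**Figure D5:**
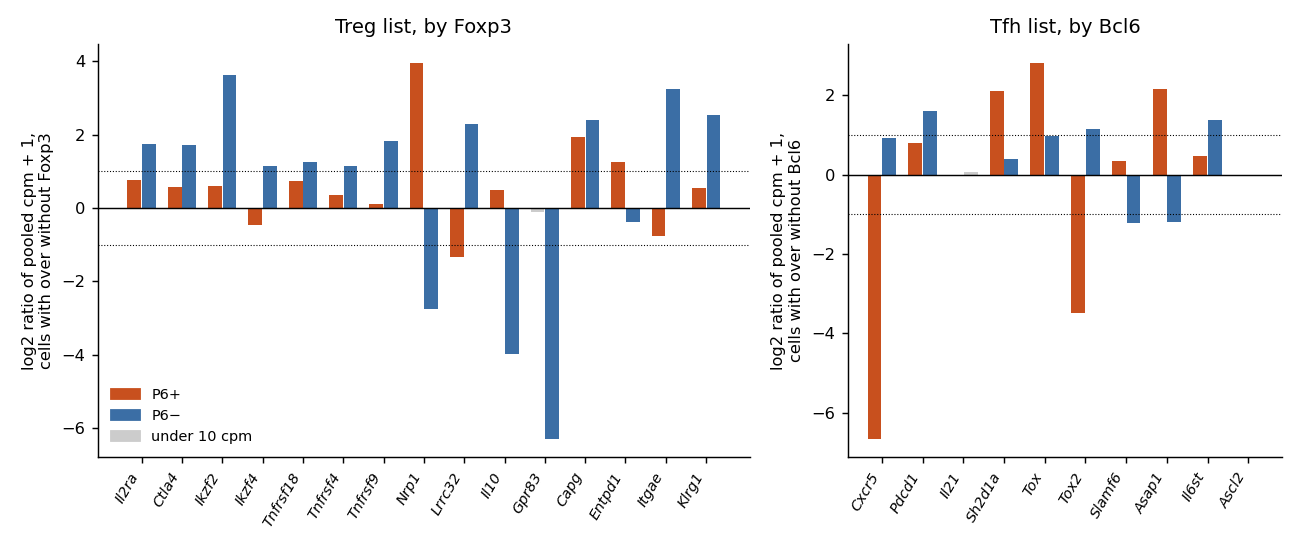
Log2 ratio of pooled cpm + 1 in cells with over cells without Foxp3 for the 15 Treg genes (left), and with over without Bcl6 for the 10 Tfh genes (right), in P6+ and P6- cells, with dotted lines at -1 and 1 and grey bars for genes under 10 cpm on both sides. Of the Treg genes 11 lie above 1 in P6- cells and 3 in P6+ cells among those tested.

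Most Treg and Th1 genes were lower in the 6 P6+ cells with Bcl6, though some were still present. Of 13 Treg genes tested 12 were called lower in them and 0 higher, where 53.8% of 7432 genes were called lower and 24.2% higher in this contrast of 6 with 26 cells. The median log2 ratio was -7.48 for the list and -1.71 over all genes. Klrg1, an inhibitory receptor of effector T cells, was present in 0 of 6 cells with Bcl6 and 19 of 26 without (1.34 and 1552 cpm, log2 ratio -9.37). Capg was present in 0 of 6 and 20 of 26 (-9.22), Itgae in 0 and 11 (0.268 and 674 cpm), and Tnfrsf9, the costimulatory receptor 4-1BB, in 0 and 17 (-8.57). Of 10 Th1 genes 8 were called lower, among them the chemokine receptor Cxcr6 (0 of 6 and 9 of 26 cells, -8.13) and the chemokine Ccl5 (0 and 10 cells, 0.179 and 167 cpm). A count of 0 in 6 cells has an upper bound of 45.9%. All 6 cells with Bcl6 were among the 16 P6+ cells without Trbv13-2, and all 16 with Trbv13-2 fell on the side without Bcl6. This contrast thus also divides the cells by receptor segment. The part of Trbv13-2 in these ratios, and in those of the Tfh list below, was not tested. Other genes of these lists were present, named here after their values were seen. Tnfrsf4, the costimulatory receptor OX40, was called lower (1537 and 4163 cpm, -1.44) yet present in 6 of 6 and 26 of 26 cells, with 64% of the reads with Bcl6 in 1 cell. Ctla4, an inhibitory receptor of Treg, was called lower too (384 and 871 cpm, -1.18), in 3 of 6 and 22 of 26 cells, while Stat4, the factor that acts below the IL-12 receptor, was present in 5 of 6 cells with Bcl6 and 10 of 26 without.

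Markers of naive and recirculating T cells moved with these changes. Of 6 such markers 5 had the higher share in the P6+ cells with Bcl6, among them Tcf7 (5 of 6 and 2 of 26 cells, log2 ratio 2.28), Klf2 (4 of 6 and 7 of 26 cells, 3.17) and Lef1 (3 of 6 and 3 of 26 cells). Their summed level ran from 946 to 6282 cpm in the cells with Bcl6 (median 3963) and from 4.29 to 11493 cpm in those without (median 888), and its part in the lower Treg and Th1 genes was not tested.

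The Tfh list was less uniform. In P6+ cells with Bcl6, 3 of 8 Tfh genes tested were called higher and 2 lower, where 24.2% of all genes were called higher and 53.8% lower, with a median log2 ratio of 0.63 against -1.71 over all genes. The higher genes included Tox, a factor of Tfh and memory development (5 of 6 and 5 of 26 cells, log2 ratio 2.81), and Asap1 (3 of 6 and 3 of 26 cells, 2.15). Cxcr5, the follicle homing receptor, was at 0.268 cpm in the cells with Bcl6 and 126.1 cpm in those without, and 88.6% of the latter came from 1 cell. In P6- cells 3 of 8 Tfh genes were called higher and 2 lower, where 24.1% of 8322 genes were called higher and 40% lower. Of the 6 naive and recirculating markers 3 had the higher share in P6- cells with Bcl6, among them Ccr7 (11 of 12 cells), and their summed level had a median of 8322 cpm with and 4311 cpm without Bcl6. Their part was not tested. Pdcd1, the receptor PD-1, was at 871 cpm in P6- cells with Bcl6 and 285 cpm in those without (1.61), and Il6st, the shared chain of the IL-6 receptor family, at 408 and 157 cpm (1.37), and without the top cell of the higher side these ratios were 0.61 and 0.66. The lower genes included Asap1, at 71.8 and 167 cpm (-1.21), the opposite of its direction in P6+ cells, and Slamf6, a receptor of the SLAM family (-1.23). Asap1 in P6- cells and Slamf6 were named after their values were seen, as were the genes that follow.

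The Treg and Th1 lists did not stand out in P6- cells with Bcl6. Of 15 Treg genes 2 were called higher and 6 lower, and of 9 Th1 genes 3 were called higher and 4 lower, where 24.1% of all genes were called higher and 40% lower, so that the lower counts were near the share over all genes. Itgae and Ccl5 were lower, but in the cells without Bcl6 they were in 10 and 6 cells. Cxcr6 was higher (538 and 262 cpm, 1.03), as were Lrrc32 (1.58), Nkg7 (2.04) and Havcr2 (1.10), and 1 cell held 99.9% of the Cxcr6 reads and 99.6% of the Nkg7 reads on the higher side.

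The Th2 list did not rise as a group in cells with Gata3. In P6+ cells 1 of 6 Th2 genes tested was called higher and 3 lower, where 38.1% of 7600 genes were called higher and 29.1% lower, with a median of -1.02 against 0.19 over all genes. Il4ra, a chain of the IL-4 receptor, was higher (195 and 40.4 cpm, log2 ratio 2.25). Ccr4 (-6.79), Il1rl1, the IL-33 receptor (-2.33), and Ccr8 (-1.31) were lower. In the cells without Gata3 a single cell held 68.8% of the Ccr8 reads, and without it the ratio was 0.22. Il1rl1 was then at -1.08, and Ccr4 was present in 2 cells in all. The Th2 cytokine genes Il4, Il5 and Il13, named after their values were seen, reached 10 reads in 0 of 32 P6+ cells, and Il4 did so in 1 P6- cell. In P6- cells 1 of 6 Th2 genes was called higher (Il1rl1, 1.62, or 0.21 without the top cell of the higher side) and 1 lower, where 22.1% of 8274 genes were called higher and 39.4% lower. The Treg list had a median of 0.57 with 5 of 13 genes higher and 0 lower in P6+ cells with Gata3, and the higher count was near the 38.1% over all genes. In P6- cells its median was 0.997 against -0.37 over all genes, with 7 of 15 higher and 2 lower, beside 22.1 and 39.4% of all genes. Of the 6 naive and recirculating markers 3 had the higher share with Gata3 in P6+ cells (median summed level 1284 cpm with and 946 cpm without) and 0 in P6- cells (2912 and 5398 cpm), and their part in these ratios was not tested.

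Most of the Th1 genes tested were higher in cells with Rora. In P6+ cells with Rora 8 of 10 Th1 genes tested were called higher and 1 lower (Cxcr3), where 33.9% of 7656 genes were called higher and 32.7% lower, with a median log2 ratio of 2.49 against 0.00. Cxcr6 reached 1419 cpm with Rora (8 of 15 cells) and 90.8 cpm without (1 of 17), a log2 ratio of 3.95. Cxcr3 was lower by cpm (-1.30) and yet present in 8 of 15 and 6 of 17 cells, and without the cell that held 65% of its reads on the higher side the ratio was 0.11. Il12rb1, a chain of the IL-12 receptor (4 and 0 cells, 7.59), and Il18rap, a chain of the IL-18 receptor (5 and 0 cells, 7.04), were higher too. In P6- cells with Rora 7 of 9 Th1 genes were called higher and 0 lower, where 27.7% of 8526 genes were called higher and 25.8% lower. Cxcr6 was in 11 of 47 and 2 of 82 cells (4.22), and Havcr2, the receptor TIM-3, in 7 of 47 and 0 of 82 (7.11). Of the Th17 list 2 of 4 genes tested were called higher and 0 lower in P6+ cells (median 2.64), and 1 of 5 higher and 0 lower in P6- cells (median 0.66). The lists were not tested against each other. Of the Treg list 6 of 14 genes were called higher with Rora and 0 lower in P6+ cells (median 0.47), and 7 of 15 higher and 3 lower in P6- cells (median 0.88). Klrg1 (1.41 and 3.70) and Ikzf2 (1.48 and 2.59), named after their values were seen, were called higher in both groups. Of the 6 naive and recirculating markers 2 had the higher share with Rora in P6+ cells and 0 in P6- cells, and their summed level had medians of 865 and 1312 cpm with and without Rora in P6+ cells and of 2912 and 6592 cpm in P6- cells. Their part in these ratios was not tested. Il17a, the cytokine interleukin-17A, was present in 1 P6+ cell.

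The few cells with a T-box factor were described singly. The 3 P6+ cells with Tbx21 held 1, 2 and 2 of the 12 Th1 genes, Nkg7 and Ccl5 in cell 9, Cxcr3 and Nkg7 in cell 14 and Il18rap in cell 32, and all 3 held Gzmb, the cytotoxic protease granzyme B, at 1418, 1678 and 1903 reads. Gzmb was present in 14 of 32 P6+ cells in all and in 0 of the 3 P6- cells with Tbx21. The 3 P6- cells with Tbx21 held 2, 3 and 4 Th1 genes, and Ifng, the cytokine interferon-γ, reached 870 reads in P6- cell 19. The P6+ cells without Tbx21 had a median of 2 Th1 genes (0 to 7) and the P6- cells without it 0 (0 to 6). The 2 P6- cells with Eomes held 0 of the 8 cytotoxic genes.

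The genes whose presence was most like that of a factor were chosen in P6- cells, among 5954 genes for Foxp3, Gata3, Rora and Bcl6. For Foxp3 they were Ikzf2 (phi 0.476), Itgae (0.452) and Lrrc32 (0.426). In P6+ cells, which the choice did not use, their phi was 0.108, 0.169 and 0.0798, near the median of 0.08. For Gata3 they were Rnft1 (0.384), Dnajc1 (0.382) and Atp2b4 (0.365), with 0.00548, 0.130 and 0.284 in P6+ cells. For Rora they were Cdc42se1 (0.405), Fxyd5 (0.392) and Cyba (0.392), with -0.116, 0.0873 and 0.398. For Bcl6 they were Pigp (0.512), Med8 (0.506) and Srrt (0.476), with 0.0138, -0.155 and 0.303, and 12 P6- cells lay behind these values. The nearest genes of Tbx21 (Abhd13, Cox19 and Gm4810) and of Eomes (Rmnd5a, Atpaf1 and Mrpl13) rest on 3 and 2 cells.

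Other transcription factors of helper T cells moved in both directions between the tetramer groups. Of the 20 on the list 18 were tested, 7 were called higher in P6+ cells and 2 lower, beside 24.3 and 29.9% of all genes, with a median log2 ratio of 0.37 against -0.05 over all genes. Zbtb7b, which encodes the CD4 lineage factor ThPOK, was present in 6 P6+ cells and 1 P6- cell (50.2 and 2.02 cpm, log2 ratio 4.09). Ikzf4, which encodes the Treg factor Eos, was present in 12 and 7 cells (509 and 100.6 cpm, 2.33), and Runx3 in 7 and 12 (102.2 and 36.3 cpm, 1.47, or 0.70 without the top cell of the higher side). Lef1, a factor of naive and memory T cells, was lower, in 6 P6+ and 38 P6- cells (11.7 and 270 cpm, -4.41). Against the same-prefix P6- cells 9 of 17 were called higher and 2 lower, beside 50.3 and 24% of all genes.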

How the data were processed

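Single cells were sequenced by Smart-Seq2 after 23 preamplification cycles and Nextera XT tagmentation. The values are whole-number counts of reads per gene, which the authors made with STAR (2.6.0a, GeneCounts) on GRCm38 with an Ensembl annotation, and deposited without imputation. The submitters' notes also name FastQC (0.11.7) and SAMtools (0.1.19). A strand setting is not given in the sources used here, so reads of overlapping genes on opposite strands may be mixed. Where a gene name occurred on several lines, the mean of its counts was used.

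Cells needed 500000 reads, 2000 genes and under 10% mitochondrial reads, and a mapping-rate filter of the study was not used here. Depth set the precision given by exact binomial (Clopper-Pearson) and Poisson 95% intervals, which cover counting error only. A gene was present at 10 or more reads. Pooled cpm, with a pseudocount of 1, gave log2 ratios, called at 1 or more either way where the higher group reached 10 cpm. With 1 sample per group no test between groups was made. Of a list, at most 4 called genes at 50 cpm or more were named, largest first, and 3 genes most alike each factor by phi among genes present in 5% of P6- cells. The factors and lists were chosen with earlier results of these data known, and some list genes had been named by the study from these cells. Gene positions are from GENCODE vM21. Single values of some list genes are not reported here.

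Alternatives were detection limits of 1, 5 and 50 reads or 10 cpm, other cell filters, thinned reads, other pseudocounts, scaling by edgeR (4.0.16) and DESeq2 (1.42.0), other sets of P6- cells and, chosen after seeing the data, partner gene ratios without the cell with the most reads and levels per kb of unshared exon. Python (3.11.15), pandas (2.3.3), scipy (1.17.1) and R (4.3.3) were used, and the scripts were tested on simulated data.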

Additional observations from a re-analysis of the deposited data

How the results depend on the processing

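A limit of 1 read in place of 10 moved shares most, except that of Eomes in P6- cells (2.33% at 1 read, beside 3.125% of P6+ cells). In P6+ cells it gave 62.5% for Foxp3, 46.9% for Tbx21, 81.2% for Gata3, 93.8% for Rora, 62.5% for Bcl6 and 96.9% for 2 or more factors. In P6- cells it gave 34.1, 23.3, 55, 89.1, 41.1 and 81.4%, in the same order. Foxp3 and Bcl6 then met in 12 P6+ cells, against 0 at limits of 5 and 50 reads. With P6- cells of the same prefix the shares were 27.3% for Foxp3, 0% for Tbx21, 18.2% for Bcl6 and 9.09% for Eomes. In log2 ratios, Tbx21 was at 1.18 with the mean of each cell's cpm, 1.25 without the highest cells and 6.58 with the same prefix. Gata3 was at 1.0003 with a pseudocount of 0.1, 1.14 without the highest cells, 1.46 with the same prefix and 1.07 with no filter on cells. Rora reversed to 1.02 with the same prefix. Eomes was at -0.39 with a pseudocount of 10, -0.10 without the highest cells and -5.35 with the same prefix, where 1 P6- cell held all 627 reads. The causes were not tested. The share of genes called either way was 56.8% with a minimum of 1 cpm and 12.8% with none. Of the 3 genes most like Tbx21, 1 was among the first 10 at 50 reads, and of those most like Eomes 0 were at 50 reads or thinned. Thinned reads gave 5 Th17 genes called higher for Rora in P6+ cells and, in P6- cells, 5 Tfh genes for Bcl6 and 2 Th2 genes for Gata3, which were also 2 at 50 reads. The other 208 values kept their side of the call or moved by less than their counting interval, and among them Foxp3 (-0.17) and Bcl6 (-0.54 with the same prefix, -0.18 without the highest cells) turned negative below the limit of a call. Among 39 ratios of named partner genes, recomputed as chosen after seeing the data without the cell with the most reads of the higher side, Gpr83 (0.0498) in P6- cells by Foxp3, Entpd1 (-5.03, or -0.77 without that of each side) by Foxp3, Ccr8 (0.22) by Gata3 and Cxcr3 (0.11) by Rora in P6+ cells reversed. No paired analysis was possible because the results come from no test and the second number of the titles only names cells. The prefix grouped cells, but all P6+ cells shared a single prefix, so it gave no pairs either. With 32 P6+ cells, absence of a pair could not be told from rarity.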
